A study of Mus musculus with 44 samples.

Results

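The genes that encode histone lysine methyltransferases and demethylases were followed in ribosome-bound mRNA of hippocampal neurons from adolescent mice. Members were the protein-coding genes whose symbol starts with Kmt, Kdm or Setd, together with Nsd1, Nsd2, Nsd3, Ehmt1, Ehmt2, Suv39h1, Suv39h2, Dot1l and Ash1l, and without Kdm5d. This rule found 44 members among the 55335 genes of the table, of which 22 are writers with an assigned histone residue, 16 are erasers and 6 have a non-histone substrate or an activity that is not settled. All 44 passed the filter on low counts in every comparison.

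The mice were male Emx1-NuTRAP mice, a cross in which Cre recombinase made from the Emx1 locus turns on tags for ribosomes and for the nuclear envelope, mostly in excitatory neurons. Mice with early-life exercise (ELE) could run on a wheel between postnatal days 21 and 41, and sedentary mice were housed without a wheel. Tissue was taken the day after that period. Translating ribosome affinity purification (TRAP) was done either on both hippocampi of a mouse, with RNA and nuclei isolated together (simultaneous isolation, SIT), or on 1 hippocampus (separate isolation), and each library came from 1 mouse. There were 4 ELE and 4 sedentary SIT libraries, and 3 ELE and 3 sedentary libraries each of the left and of the right hippocampus. Every mouse carried the transgenes, so no group lacked the tag, and TRAP libraries hold the mRNA bound to tagged ribosomes rather than all mRNA of the tissue. Where a level differed, fewer cells of a type and less RNA per cell cannot be told apart in such bulk samples.

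Counts on genes were between 45895097 and 65767802 per library. The study compared 3 ELE SIT libraries (mice NT6.303, TG7.4.1 and TG7.4.2) with 2 sedentary ones (NT6.305 and NT6.306). ELE library NT6.304 and sedentary libraries NT7.2.3 and NT7.2.4 were not in that comparison, and those of the NT7.2 mice stood apart from the rest. Mitochondrial genes took 8.64% and 9.64% of the counts in the NT7.2 libraries and at most 0.523% in any other. Among the libraries compared, ELE library TG7.4.2 stood apart in nuclear ribosomal RNA, with 0.731% of the counts against at most 0.172% elsewhere, and had the lowest sum of the members, 1929 CPM. The part of this in the SIT values was not tested. In the 17 libraries that were compared, 6 excitatory neuron markers summed to between 6517 and 10067 CPM (read counts scaled to a common library size with TMM), and Emx1 was detected in every library. Interneuron markers summed to between 40.7 and 75.8 CPM, microglia markers to between 1.82 and 6.76 CPM, endothelial markers to between 2.13 and 30.8 CPM, and astrocyte and oligodendrocyte markers to between 1837 and 5343 CPM and between 2336 and 3844 CPM. In the NT7.2 libraries the interneuron sum was 804 and 840 CPM and the microglia sum 145 and 154 CPM. Itgam, Tmem119, Tek and Cdh5, which define microglia and endothelium, were at 0 in 4 to 6 of the 20 libraries. Results are therefore given for the 17 libraries, and the SIT fold changes of the residue classes and of the members described are given again with all 8 SIT libraries.

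Methyl groups on histone lysines are placed by writers, nearly all of which use a SET domain, and removed by erasers, which belong to the flavin-dependent LSD family or to the JmjC family. The residue sets the usual meaning of the mark. H3K4 methylation marks promoters and enhancers in use, H3K36 and H3K79 methylation mark transcribed gene bodies, and H3K9, H3K27 and H4K20 methylation are found in repressed or compacted chromatin. In neurons these enzymes are known for roles in activity-dependent transcription, memory and intellectual disability. The Polycomb writers of H3K27 do not carry these symbols and are not members.

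The levels of the members, as median CPM per kb of exonic length over the 17 libraries, ran from 0.155 for Kdm4d to 39.5 for Ehmt2. The median member had 3.41 CPM per kb, against 4.04 for all 14868 protein-coding genes tested, and 19 of the 44 lay above that median. Ehmt2, which encodes the H3K9 writer G9a, was between 29.4 and 45.7 CPM per kb and stood above 91.1% of protein-coding genes. Setd3, an actin histidine methyltransferase that is a member by its symbol, followed with 28.4 (26.7 to 31.6) and Setd7, which monomethylates H3K4 and many other proteins, with 24.8 (19.3 to 29.1). The range of Setd3 overlapped that of Ehmt2 and that of Setd7, the ranges of Ehmt2 and Setd7 did not overlap, and all 3 were above the whole range of Kmt5a, the fourth in order, at 13.3 (11.3 to 18.7).

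For each residue the gene with the highest median is named. Among H3K4 erasers this was Kdm1a, the flavin-dependent demethylase LSD1, with 11.7 CPM per kb, against 1.11 for its relative Kdm1b. Among the H3K9 erasers, Kdm4b led with 11.8 CPM per kb and Kdm4d was lowest, with 7 to 55 reads per library. Kmt5a, the enzyme that monomethylates H4K20, had 13.3 CPM per kb, and Kmt5b and Kmt5c, which add the further methyl groups, had 3.46 and 1.94. Ash1l led the H3K36 writers with 6.63 CPM per kb, in a class whose 5 members all lay between 3.78 and 6.63. Kdm2a, a CpG-island-binding eraser of H3K36, had 4.27 CPM per kb and Dot1l, the H3K79 writer, had 3.31. Kdm7a, a JmjC eraser of H3K9 and H3K27, had a median of 5.96 CPM per kb, above Kdm6b (JMJD3) at 5.27 and Kdm6a (UTX) at 1.09. The ranges of Kdm7a (4.80 to 9.79) and Kdm6b (4.25 to 8.02) overlapped. The large MLL-family writers Kmt2a, Kmt2b, Kmt2c and Kmt2d lay low, between 1.82 and 2.88 CPM per kb. Levels per kb depend on the transcript length used, and with the longest annotated transcript of each gene the median member had 5.21.

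**Figure D1:**
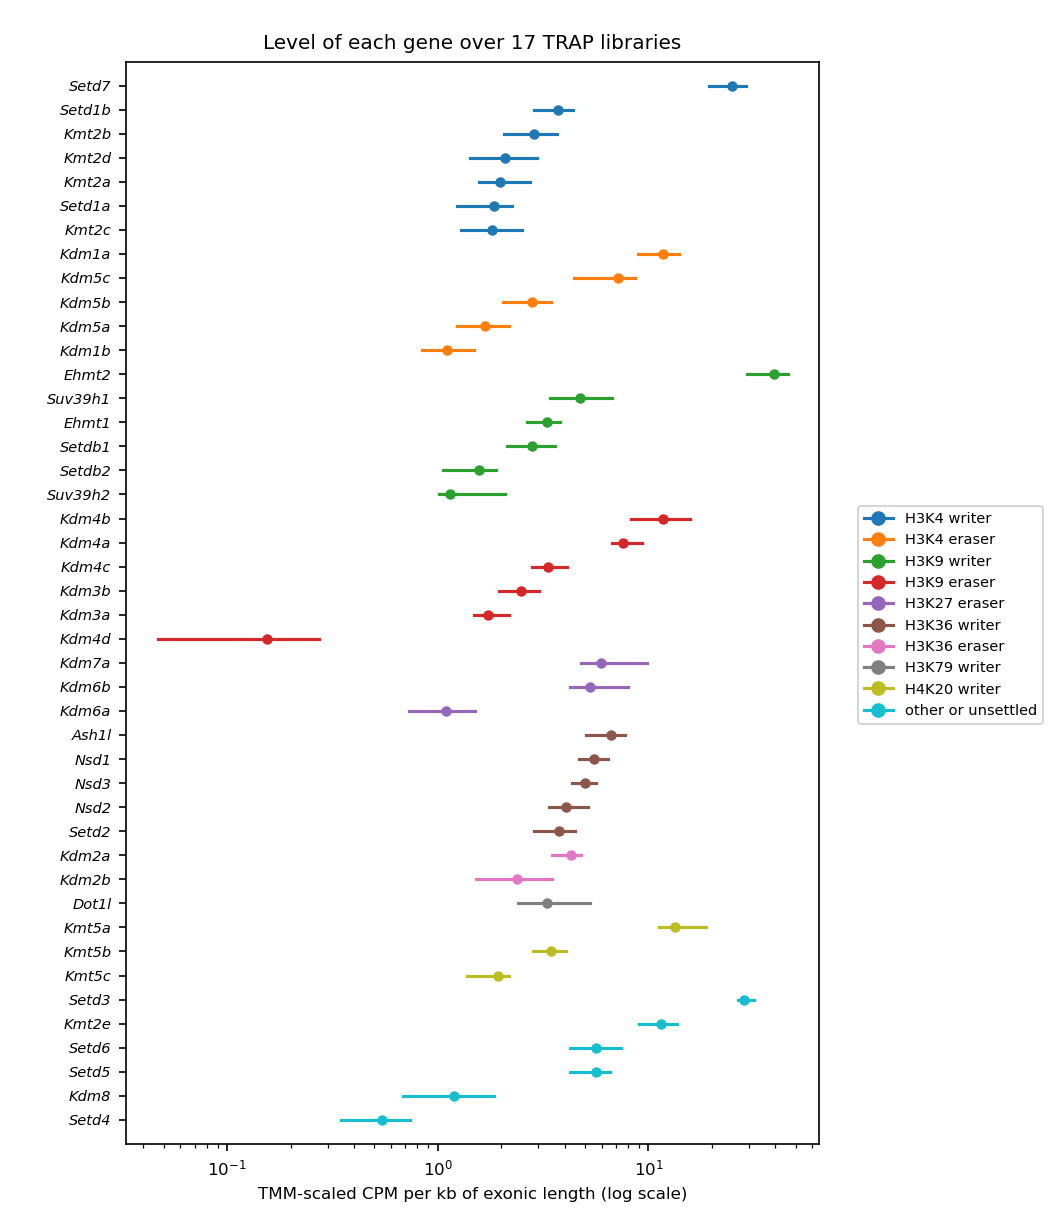
Level of each of the 44 genes in CPM per kb of exonic length, on a log axis, with the median over 17 libraries as a point and the lowest and highest library as a line, coloured by residue and role. Ehmt2, Setd3 and Setd7 lie above the others and Kdm4d lies lowest, at 0.155.

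Summed over a class, with each gene counted at 1 residue only, writers exceeded erasers at H3K4, H3K9 and H3K36, and at each of these the order turned on how a few genes were counted. H3K4 writers summed to 39.8 ± 4.12 CPM per kb (SD, n = 17) and H3K4 erasers to 24.1 ± 2.85, and the ratio was between 1.21 and 1.90 over the libraries. For H3K9 the ratio of writers to erasers was between 1.62 and 2.10, and for H3K36 between 3.40 and 4.40. Without Setd7 the H3K4 ratio was between 0.501 and 0.729, and without Ehmt2 the H3K9 ratio was between 0.420 and 0.666, so that the erasers then exceeded the writers in all 17 libraries. Kdm4a, Kdm4b and Kdm4c, which are known to act on H3K36 as well, were counted at H3K9 only. With Kdm4a added to the H3K36 erasers the H3K36 ratio was between 1.58 and 1.98, and with all 3 added it was between 0.741 and 1.04. With Kdm7a, counted at H3K27, added to the H3K9 erasers, the H3K9 ratio was between 1.33 and 1.73. The H3K9 ratio was 1.84 ± 0.103 (n = 3) in ELE and 2.08 ± 0.0150 (n = 2) in sedentary SIT libraries, 1.82 ± 0.119 and 2.03 ± 0.0588 (n = 3 each) on the left, and 1.81 ± 0.237 and 1.91 ± 0.121 (n = 3 each) on the right. The ELE and sedentary ranges of this ratio did not overlap in SIT or on the left and overlapped on the right, and with Ehmt2 left out of the sum they overlapped in all 3 comparisons. With Kdm7a added to the H3K9 erasers they stayed apart in SIT (1.34 to 1.52 in ELE, 1.65 to 1.67 in sedentary) and on the left. The H3K4 ratio was also apart in SIT, but higher in ELE (1.80 to 1.85 against 1.68 to 1.76), and overlapped on the left and right. The H3K36 ratio overlapped in all 3 comparisons. The SIT libraries outside the comparison had an H3K9 ratio of 1.52 and 1.58 (NT7.2.3 and NT7.2.4, sedentary) and 1.39 (NT6.304, ELE), so that with all 8 libraries the SIT ranges overlapped as well. These ratios were looked at after the values were known and were not tested.

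To determine whether ELE changed the members, ELE and sedentary libraries were compared by edgeR's quasi-likelihood test over all genes, with Benjamini-Hochberg adjustment. A gene counted as called when its unadjusted p was under 0.05 and its log2 fold change was beyond a threshold that rounds to 0.39, in either direction, so that values printed as 0.39 can lie on either side of it. In SIT 1 of 44 members was called, Kdm7a, which was higher in ELE. Over all 18238 genes tested, 3.65% were called and 1.54% were called higher. On the left 1 member was called as well, again Kdm7a and again higher, where 2.07% of 17750 genes were called and 1.1% were called higher. On the right hippocampus edgeR and DESeq2 each called 0 members, beside 1.97% of 17570 genes called by edgeR. Unadjusted p-values were under 0.05 for 2 members in SIT, beside 5.48% of all genes, for 1 on the left, beside 3.94%, and for 1 on the right, beside 2.78%. The share of members called was thus near or below the share of all genes, and in these 3 comparisons no gene of the table had an adjusted p under 0.05.

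Kdm7a was the member called. In SIT the ELE libraries had 98.4, 75.2 and 57.5 CPM and the sedentary libraries 57.1 and 56.1 CPM. The groups did not overlap, although the lowest ELE library, TG7.4.2, lay within 1 CPM of the higher sedentary library. The log2 fold change was 0.44 ± 0.19 (SE), with an adjusted p of 0.905 by edgeR. On the left the ELE libraries had 58.6, 60.8 and 89.3 CPM and the sedentary libraries 59.0, 48.2 and 50.7 CPM. The groups overlapped, and ELE library TG9.1.4 stood above all the others. Its astrocyte markers summed to 5327 CPM, against 2415 and 3340 CPM in the other left ELE libraries. Microglia markers had 6.76 CPM there, against 3.53 and 1.82 CPM, and the part of these markers was not tested. The log2 fold change on the left was 0.40 ± 0.16, with an adjusted p of 0.960 by edgeR. On the right the ELE libraries had 68.1, 69.7 and 77.3 CPM and the sedentary libraries 60.0, 59.4 and 60.0 CPM. These groups did not overlap, and the sedentary libraries lay within 1 CPM of each other. The log2 fold change there was 0.26 ± 0.09, under the threshold on size, with an unadjusted p under 0.05 and an adjusted p that rounds to 1 by edgeR. The difference of the left and right effects was 0.14 ± 0.19 in the interaction term and was not called.

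Over both hemispheres together, in a model with a term for hemisphere, Kdm7a had 70.6 ± 11.3 CPM in 6 ELE libraries and 56.2 ± 5.32 CPM in 6 sedentary libraries (SD). Its log2 fold change was 0.33 ± 0.09, with an adjusted p of 0.902 by edgeR. In that model no member was called by edgeR or by DESeq2, beside 1.97% of 18283 genes, and no member had groups that did not overlap, beside 0.284%. Log2 fold changes were above 0 for 30 of the 44, beside 49.6% of all genes. Unadjusted p-values were under 0.05 for 3 members, Kdm7a, Kmt5a and Kdm4a, beside 5.37% of all genes tested. In the same model the endothelial marker Tek (-2.24) and the choroid plexus marker Folr1 (-1.86) were called lower in ELE, 1 of 6 in each list, and the medians of these lists were -0.97 and -1.92. Tek had 0.117 ± 0.105 CPM in ELE and 0.601 ± 0.817 CPM in sedentary libraries (SD). The part of these 2 lists in the values of the members was not tested.

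Kmt5a, the writer of H4K20 monomethylation, was 0.21 ± 0.08 higher on the log2 scale over both hemispheres (adjusted p = 0.902, edgeR). On the right its ELE libraries had 71.7, 80.7 and 77.6 CPM and the sedentary libraries 59.8, 72.2 and 68.3 CPM, and on the left the ELE libraries had 67.7, 60.9 and 91.8 CPM and the sedentary libraries 64.0, 60.5 and 64.3 CPM. The groups overlapped on both sides, and ELE library TG9.1.4 was again the highest. Kdm4a, an eraser of H3K9 and H3K36, was 0.15 ± 0.07 higher over both hemispheres (adjusted p = 0.911, edgeR), with 1 of the left ELE libraries, TG9.1.4, at 54.1 CPM and the other libraries of that side between 41.3 and 43.6 CPM. On the right Kdm4a had 44.7, 51.7 and 51.2 CPM in ELE and 41.8, 48.2 and 43.8 CPM in sedentary libraries, with overlapping groups and a log2 fold change of 0.14 ± 0.10, beside 0.16 ± 0.10 on the left.

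The size of the Kdm7a difference in SIT turned on ELE library NT6.303, without which the log2 fold change was 0.23 and was not called. Without TG7.4.1 it was 0.46, without NT6.305 it was 0.45 and without NT6.306 it was 0.43, close to the value with all 5 libraries, but it was not called in these either. Without NT6.303 the 1 member called was Setd6 (0.54), beside 4.33% of all genes. Without TG7.4.1 it was Kdm8 (0.80), beside 3.09%. Both were higher in ELE and neither was called with all 5 libraries. Without TG7.4.2 Kdm7a had 0.61 and was called, where 6.1% of all genes were called, and the median of the members was then 0.21. Kdm5a, a JmjC eraser of H3K4, was the other member called without TG7.4.2, at 0.41 ± 0.15 (adjusted p = 0.357, edgeR) against 0.25 with it. It had 24.8, 25.9 and 17.4 CPM in the ELE libraries, the last in TG7.4.2, and 20.5 and 17.4 CPM in the sedentary libraries. Without that library Kmt2d had 0.33 ± 0.12 and Kdm6b 0.22 ± 0.11, neither of them called, and all 6 H3K9 erasers lay above 0, between 0.03 and 0.35, where 4 of 6 did with it. On the left Kdm7a had 0.19 without TG9.1.4, 0.34 without TG7.3.4 and 0.38 without TG9.2.4, and was not called in these. With all 8 SIT libraries the additional ELE library NT6.304 had 124 CPM and the additional sedentary libraries NT7.2.3 and NT7.2.4 had 92.0 and 85.3 CPM. The log2 fold change was then 0.28 ± 0.25 and was not called. Within the 4 SIT mice numbered NT6 it was 0.96 ± 0.16, with an adjusted p of 0.648 by edgeR.

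Within the NT6 mice 5 members were called, all higher in ELE, beside 6.65% of genes called and 3.59% called higher. In each of the 5 the higher ELE library was NT6.304, with Kdm7a at 124 against 98.4 CPM and Kmt5a at 110 against 87.1 CPM. The study left out 1 exercised animal for its distance from the others in principal components. Besides Kdm7a the members called were Kdm6b, the H3K27 eraser JMJD3, at 0.94 ± 0.38, Kmt5b at 0.53 ± 0.16, Kdm5c at 0.46 ± 0.17 and Kmt5a at 0.44 ± 0.15. Kdm6b had 41.5 CPM in NT6.303 and 95.5 CPM in NT6.304, and 36.6 and 33.8 CPM in the sedentary NT6 libraries. The ELE libraries of the TG7.4 mice had 40.7 and 29.6 CPM of Kdm6b, which straddled the sedentary values. The TG7.4 mice were all exercised and the NT7.2 mice all sedentary, so for them the mouse number and exercise cannot be told apart.

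Markers of other cell types also differed in the same comparisons, in part through 1 library of a group. Choroid plexus markers summed to between 129 and 573 CPM in the ELE and between 586 and 668 CPM in the sedentary SIT libraries, and 3 of the 6 were called lower in ELE there. On the right they summed to between 17.3 and 43.8 CPM in ELE libraries. Right sedentary libraries had 35.7, 84.8 and, in TG9.2.3, 1159 CPM. There 4 of the 5 tested were called lower. Left ELE libraries had between 26.2 and 996 CPM and left sedentary libraries between 31.4 and 1278 CPM, and 0 of 6 were called or had an unadjusted p under 0.05 by edgeR. Of these markers Kcnj13 was at 0 in 5 of the 20 libraries, and Clic6 and Otx2 in 1 each. Endothelial markers summed to between 3.06 and 4.43 CPM in right ELE and up to 30.8 CPM in right sedentary libraries, with 3 of 6 called lower. Among the interneuron markers Pvalb was called lower in SIT and Slc32a1 higher on the right, and the microglia marker Cx3cr1 was called lower on the right. The part of these markers in the values of the members was not tested. Of the excitatory neuron, astrocyte and oligodendrocyte markers, 0 of 6 in each list were called by edgeR in SIT, on the left or on the right, and 3 had an unadjusted p under 0.05, all in SIT.

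The promoter of Kdm7a is shown because it is the 1 member called in SIT and on the left with the libraries the study compared. Kdm7a (ENSMUSG00000042599.8) lies on the minus strand at chr6:39136623-39206789 of GRCm38. The window is the RefSeq promoter on GRCm38.p6, chr6:39206724-39207023, minus strand, 5′ to 3′, with matches to the GC box GGGCGG, on either strand, in capitals.
Kdm7a: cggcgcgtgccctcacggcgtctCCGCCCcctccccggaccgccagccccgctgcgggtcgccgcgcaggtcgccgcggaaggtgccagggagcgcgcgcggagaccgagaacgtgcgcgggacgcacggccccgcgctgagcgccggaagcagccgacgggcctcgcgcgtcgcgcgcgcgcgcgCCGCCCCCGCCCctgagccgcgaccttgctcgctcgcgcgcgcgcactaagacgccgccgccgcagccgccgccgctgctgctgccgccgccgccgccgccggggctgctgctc
This window has 3 GC boxes, 82.7% G and C, and 65 CpG dinucleotides, the highest number among the 44 windows found for 32 of the 44 members. The median was 28 CpG per member window and 19 per window over 16143 promoters of tested genes. A GC box was present in 72.7% of member windows and in 58.1% of all of these. TGACG, the core of the cAMP response element (CRE), was searched on both strands and was in 22.7% of member windows and 28.5% of all. It was absent from the Kdm7a window, and its longer form TGACGTCA, which contains it, was in 2.27% of member windows and 2.78% of all. The ETS core CCGGAA was in 27.3% and 23.4%, and the E-box CACGTG in 9.09% and 9.27%, also on both strands. These are matches of letters and not sites shown to be bound.

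No member besides Kdm7a met the call rule between ELE and sedentary mice in SIT, on the left or on the right with the libraries compared. In SIT the median log2 fold change of the 44 was 0.12, with 33 above 0, where 50.2% of all genes tested were above 0. On the left the median was 0.09, with 34 above 0 beside 50.9% of all genes, and on the right it was 0.02, with 25 above 0 beside 48.7%. The members share their libraries and are not replicates, so these counts describe the list. In SIT 7 members had groups that did not overlap, beside 22.1% of all genes tested. They were Kdm4b, Kdm7a, Kmt5b, Setd3, Setd5 and Setdb2, higher in ELE, and Setd1a, lower in ELE. On the left 2 did not overlap (Kdm3a and Kdm5c, higher), beside 10.7% of all genes, and on the right 3 (Ehmt1 and Kdm7a, higher, and Kdm4d, lower), beside 7.66%. By direction, groups that did not overlap made up 10.4% of all genes as higher and 11.7% as lower in SIT, 4.83% and 5.85% on the left, and 3.71% and 3.94% on the right hippocampus.

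Setd5, a SET-domain gene known from intellectual disability, was the other member with an unadjusted p under 0.05 in SIT. Its ELE libraries had 99.6, 105 and 95.3 CPM and its sedentary libraries 77.7 and 88.2 CPM. The groups did not overlap, and the log2 fold change was 0.27 ± 0.11 (adjusted p = 0.905, edgeR), under the threshold on size. With all 8 SIT libraries the groups overlapped, since NT7.2.3 and NT7.2.4 had 102 and 105 CPM and NT6.304 had 108 CPM, and the log2 fold change was 0.12 ± 0.12. Left and right values were 0.03 ± 0.10 and -0.06 ± 0.08, and there the groups overlapped. Setd1a, a writer of H3K4 trimethylation at promoters, was the 1 member that was lower in every ELE library of SIT than in both sedentary libraries. It had 8.35, 10.4 and 8.66 CPM in ELE and 11.8 and 11.6 CPM in sedentary libraries, with a log2 fold change of -0.36 ± 0.19 that was not called. With all 8 libraries it was -0.24 ± 0.21, and ELE library NT6.304, at 14.7 CPM, lay within the sedentary range. On the left and right it had 0.04 ± 0.15 and -0.02 ± 0.13. Kdm8, a JmjC protein whose histone activity is not settled, had the highest fold change of any member in SIT, 0.55 ± 0.37, and on the right, 0.51 ± 0.28, at levels between 1.64 and 4.41 CPM, and was not called. Its SIT value was 0.30 ± 0.29 with all 8 libraries and 0.29 ± 0.37 without TG7.4.2.

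By residue, the 5 H3K36 writers had log2 fold changes between 0.01 and 0.14 in SIT, between 0.07 and 0.18 on the left and between -0.01 and 0.08 on the right. The 3 H4K20 writers lay between 0.06 and 0.29 in SIT, between -0.09 and 0.22 on the left and between -0.04 and 0.20 on the right. The 5 H3K4 erasers lay between -0.17 and 0.25 in SIT, between -0.02 and 0.17 on the left and between -0.15 and 0.11 on the right, and the 7 H3K4 writers between -0.36 and 0.23, between -0.09 and 0.27 and between -0.28 and 0.04. The H3K36 erasers Kdm2a and Kdm2b lay between 0.14 and 0.16, between 0.02 and 0.26 and between -0.02 and 0.08. Kmt5a was higher in ELE by 0.25 ± 0.14, 0.22 ± 0.14 and 0.20 ± 0.10 in SIT, left and right, and none of the 3 was called. For the 6 H3K9 erasers the values ran from -0.21 to 0.24 in SIT and from 0.03 to 0.36 on the left, where the highest was Kdm4d with an SE of 0.80, and from -0.27 to 0.14 on the right. The 6 H3K9 writers ran from -0.23 to 0.32 in SIT, from -0.15 to 0.17 on the left and from -0.20 to 0.12 on the right, and Ehmt2, the most abundant of them, had -0.06 ± 0.10, -0.09 ± 0.08 and -0.06 ± 0.08 in the 3 comparisons. Dot1l had 0.24 ± 0.16, 0.25 ± 0.18 and 0.18 ± 0.13. Among the H3K27 erasers Kdm6b had 0.08 ± 0.16, 0.25 ± 0.18 and 0.17 ± 0.13, and Kdm6a -0.26 ± 0.22, -0.02 ± 0.19 and -0.09 ± 0.20. The leading genes of the remaining classes, Setd7, Kdm1a, Kdm2a, Ash1l and Setd3, had absolute log2 fold changes between 0.02 and 0.16 in these comparisons.

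With all 8 SIT libraries, the H3K36 writers ran from -0.23 to -0.03, so that 0 of 5 were above 0 where 5 of 5 had been. The H3K4 writers ran from -0.91 to -0.07, with 0 of 7 above 0 where 5 of 7 had been. H3K4 erasers then lay between -0.28 and 0.17, H3K36 erasers between -0.07 and 0.28, H3K27 erasers between -0.67 and 0.28, H3K9 writers between -0.13 and 0.34 and H4K20 writers between -0.03 and 0.28. The H3K9 erasers lay between -1.06 and 0.13, the lowest being Kdm4d with an SE of 0.80. Kmt5a had 0.28 ± 0.15, Dot1l 0.17 ± 0.35 and Kdm6b 0.22 ± 0.33, and none was called. Setd7 (-0.07), Kdm2a (-0.07) and Ash1l (-0.17) were then below 0 and Kdm1a (0.17) above it, the opposite of their signs with 5 libraries.

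**Figure D2:**
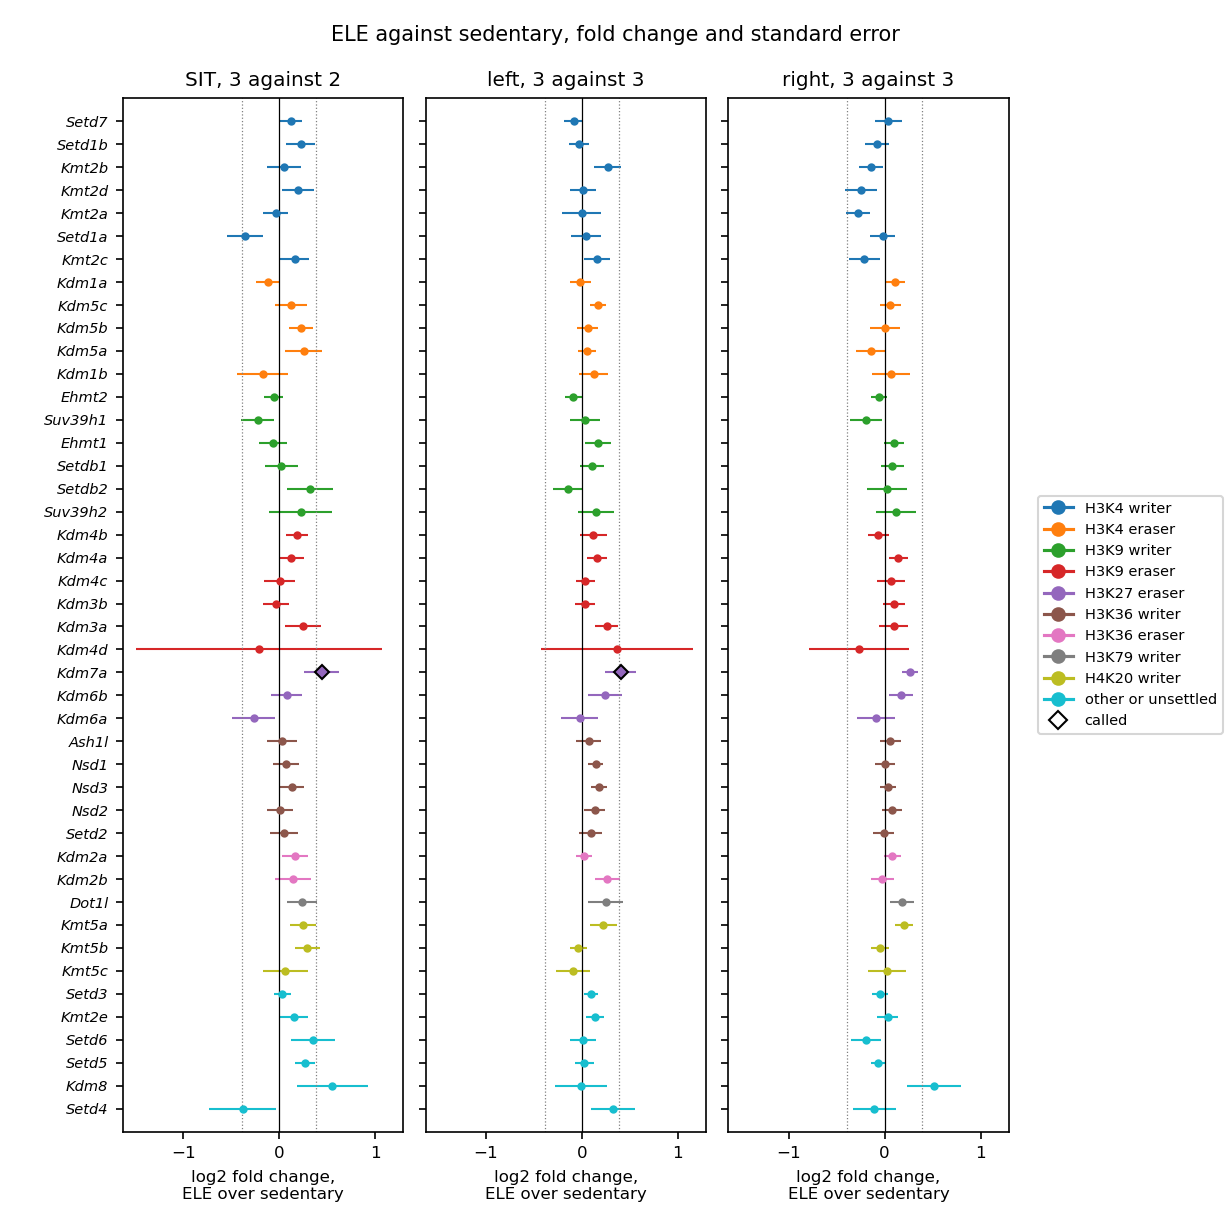
Log2 fold change of ELE over sedentary mice for each of the 44 genes, with its standard error as a bar, in SIT (3 against 2 libraries), left and right (3 against 3 each). Dotted lines stand at the fold threshold of 0.39 in either direction. Kdm7a is the only gene called, in SIT and on the left, at 0.44 and 0.40.

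The H3K4 writers had the highest class median of the left minus right difference among the classes, at 0.26 on the log2 scale. On the left 4 of the 7 had a log2 fold change of ELE above 0, and on the right 1 of 7. For Kmt2a, the catalytic subunit of an MLL complex, the right ELE libraries had 32.2, 32.3 and 34.2 CPM and the sedentary libraries 44.0, 33.0 and 42.6 CPM. The groups overlapped through sedentary library TG9.1.1, and the log2 fold change of -0.28 ± 0.12 was not called. Its left libraries had 26.1, 35.0 and 45.4 CPM in ELE and 43.7, 31.1 and 31.8 CPM in sedentary mice, with equal means of 35.5 CPM. Kmt2d, an enhancer H3K4 writer, had 38.3, 42.8 and 51.9 CPM in right ELE libraries and 59.0, 40.0 and 59.1 CPM in right sedentary libraries. Sedentary library TG9.1.1 was again the low one. Its astrocyte markers summed to 5343 CPM, against 2909 and 2973 CPM in the other right sedentary libraries, and their part was not tested. The log2 fold change of Kmt2d was -0.25 ± 0.17 on the right and 0.01 ± 0.14 on the left, and was not called. Without TG9.1.1, Kmt2a (-0.40), Kmt2c (-0.39) and Kmt2d (-0.42) were called lower and Kdm8 (0.71) higher in ELE on the right, with adjusted p-values between 0.451 and 0.906 by edgeR. In that setting 3.53% of 18216 genes were called and 2.06% were called lower.

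In the test of the interaction itself no member was called by edgeR or by DESeq2, beside 2.2% of 18810 genes called by edgeR. Unadjusted p-values were under 0.05 for 0 members, beside 2.6% of all genes, and 35 of the 44 differences were above 0, beside 52.2%. The endothelial marker Kdr was called in this test, at 1.40, and the endothelial and choroid plexus lists had medians of 1.94 and 2.34, whose part was not tested. Kmt2b, a further MLL-family writer, had the smallest p among the members, with a left minus right difference of 0.41 ± 0.20. Its left ELE libraries had 29.0, 33.2 and 35.3 CPM and left sedentary libraries 32.1, 22.2 and 26.8 CPM. On the right ELE libraries had 24.4, 27.6 and 28.9 CPM and sedentary libraries 32.7, 25.7 and 30.6 CPM, so that the groups overlapped on both sides.

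The SIT libraries outside the comparison changed the picture for the H3K4 writers. Kmt2d had 38.1, 41.6 and 28.4 CPM in the 3 ELE libraries and 33.2 and 29.8 CPM in the 2 sedentary libraries. It had 113 CPM in NT7.2.3 and 79.9 CPM in NT7.2.4, above every other library. Kmt2a had 31.1, 36.4 and 31.2 CPM in the ELE libraries, 34.5 and 32.9 CPM in the sedentary libraries, and 102 and 70.6 CPM in the NT7.2 libraries. With 5 libraries the SIT log2 fold change was -0.04 ± 0.13 for Kmt2a and 0.19 ± 0.17 for Kmt2d. With all 8 it was -0.91 ± 0.32 for Kmt2a (adjusted p = 0.480) and -0.89 ± 0.38 for Kmt2d (adjusted p = 0.529), and both were called lower in ELE by edgeR. Kdm6a, the X-linked H3K27 eraser UTX, was the third member called, at -0.67 ± 0.23 (adjusted p = 0.470), with 5.66 to 8.61 CPM in the 4 ELE libraries, 8.69 and 8.14 CPM in the NT6 and 13.4 and 12.2 CPM in the NT7.2 sedentary libraries. Over all 17531 genes tested, 7.7% were called in that setting and 5.41% were called lower. The median log2 fold change of the members was -0.028 with all 8 libraries.

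**Figure D3:**
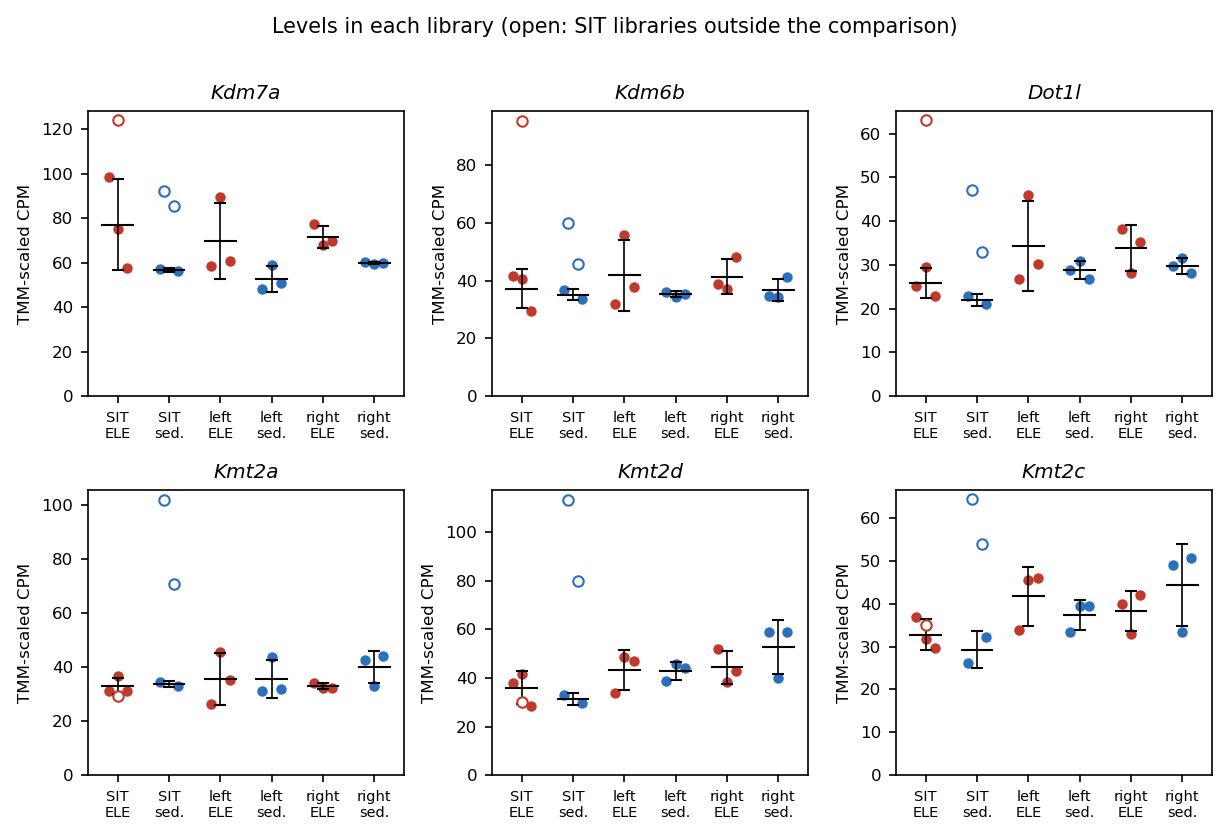
TMM-scaled CPM of 6 genes in each of the 20 libraries, by isolation, hemisphere and exercise (ELE red, sedentary blue). Filled points are the 17 libraries compared, with their mean and SD in black, and open points are the SIT libraries left out. The open sedentary points of Kmt2a, Kmt2d and Kmt2c (NT7.2.3 and NT7.2.4) lie above every other library, and the open ELE point (NT6.304) lies above every other library for Kdm7a, Kdm6b and Dot1l.

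Between the sedentary SIT mice, 31 of 44 members were higher in both NT7.2 libraries than in both NT6 libraries, and 6 were lower, beside 29.2% and 31.6% of all genes tested. Among the 31, the ratio of the mean CPM was highest for Kmt2d at 3.07, followed by Kmt2a at 2.55, Kmt2c at 2.03, Setd1b at 1.94 and Dot1l at 1.83. Kdm4d, the member with the fewest reads, had a ratio of 2.45, but its libraries overlapped and the ratio came from NT7.2.3. Suv39h1, a writer of heterochromatic H3K9 methylation, had the lowest ratio at 0.709. The rank correlation of exonic length with the log2 ratio, with 0.5 CPM added to both means, was 0.60 over the 44 members and 0.37 over 18219 genes. Setd5, one of the longest members, had a ratio of 1.25. With all 8 SIT libraries the rank correlation of exonic length with the log2 fold change of ELE was -0.35 over the members, against 0.13 with 5, and over all genes it was -0.16 against 0.11. These are correlations across genes of the same few libraries and are given as descriptions. The part of length, of the mitochondrial share or of the interneuron and microglia markers in these values was not tested. The ratio of summed H3K4 writers to erasers, per kb, was 2.17 and 2.24 in the NT7.2 libraries and 1.12 in NT6.304, outside the range of the 17 libraries compared.

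**Figure D4:**
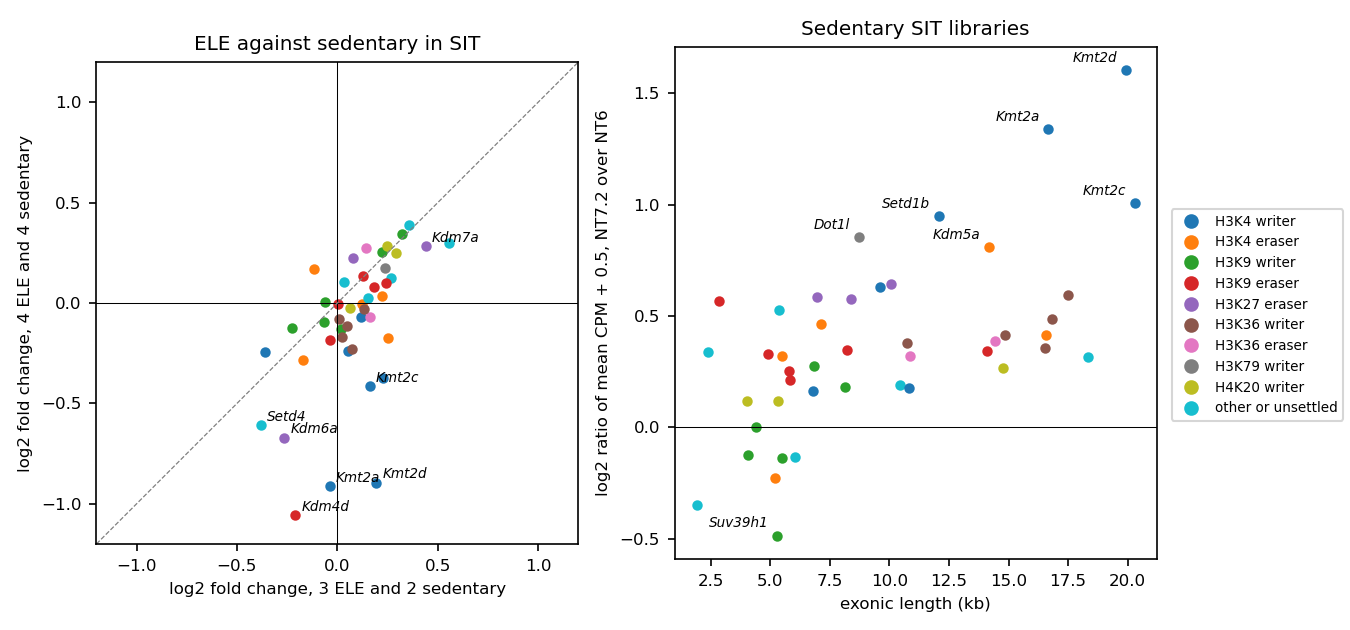
Left, log2 fold change of ELE over sedentary mice in SIT with the 3 ELE and 2 sedentary libraries compared by the study (x axis) and with all 4 and 4 (y axis), 1 point per gene, with the dashed line marking equal values. Right, log2 ratio of the mean CPM plus 0.5 in the NT7.2 over the NT6 sedentary libraries against exonic length in kb. Kmt2a and Kmt2d fall to -0.91 and -0.89 on the y axis of the left panel, where Kdm4d, with few reads, lies lowest at -1.06, and they stand highest on the right panel.

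The promoters of Kmt2a and Kmt2d are shown because the study lists their products among predicted upstream regulators. They are among the members whose SIT value turned on these libraries, and not the only ones. Kmt2a lies at chr9:44803355-44881296 and Kmt2d at chr15:98831669-98871204, both on the minus strand of GRCm38. The RefSeq windows on GRCm38.p6 are chr9:44881240-44881539 and chr15:98871156-98871455, minus strand, 5′ to 3′, with GC boxes in capitals.
Kmt2a: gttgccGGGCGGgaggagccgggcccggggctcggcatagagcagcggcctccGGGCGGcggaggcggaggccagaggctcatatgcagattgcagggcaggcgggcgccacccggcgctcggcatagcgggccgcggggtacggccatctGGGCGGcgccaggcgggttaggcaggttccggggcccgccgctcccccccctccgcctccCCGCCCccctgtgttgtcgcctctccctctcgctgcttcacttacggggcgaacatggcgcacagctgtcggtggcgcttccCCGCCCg
Kmt2d: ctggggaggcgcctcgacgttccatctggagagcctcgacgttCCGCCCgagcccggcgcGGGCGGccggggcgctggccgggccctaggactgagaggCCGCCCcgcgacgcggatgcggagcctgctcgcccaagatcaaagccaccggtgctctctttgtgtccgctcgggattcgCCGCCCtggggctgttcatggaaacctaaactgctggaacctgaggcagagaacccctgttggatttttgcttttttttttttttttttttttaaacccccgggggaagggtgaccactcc
The Kmt2a window has 36 CpG and 75.7% G and C, and the Kmt2d window 27 CpG and 62.7%.

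To show how far the levels depended on the isolation, the 2 sedentary SIT libraries were compared with the 6 separately isolated sedentary libraries. Here 7 of 44 members were called, all lower in SIT, or 15.9% of the members beside 15.5% of 18911 genes. Lower in SIT were 9.97% of all genes and higher 5.52%. The members were the H3K4 writers Kmt2d and Kmt2c, the H3K4 eraser Kdm5c, the H3K9 eraser Kdm4b, the H3K9 writer Setdb2, the H3K36 eraser Kdm2b and Dot1l. The median log2 fold change of the members was -0.18, with 35 of 44 below 0, beside a median of -0.01 over all genes, of which 50.8% were below 0. At an adjusted p of 0.05, 8 members passed, beside 13.6% of all genes. In 19 members both SIT libraries lay below all 6 others, beside 16.2% of all genes.

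Kdm5c, the X-linked eraser of H3K4, had the smallest p. Its SIT libraries had 31.5 and 38.2 CPM and the separately isolated libraries 51.5, 50.9 and 49.9 CPM on the left and 48.3, 61.0 and 54.6 CPM on the right. The groups did not overlap, and the log2 fold change was -0.58 ± 0.11 (adjusted p = 0.00459, edgeR). Kdm4b had 42.9 and 40.4 CPM in SIT against 62.3, 57.6 and 54.2 CPM on the left and 57.8, 71.2 and 65.9 CPM on the right, with a log2 fold change of -0.55 ± 0.10 (adjusted p = 0.00532). Kmt2d had 31.5 ± 2.40 CPM in SIT and 47.8 ± 9.08 CPM in separate isolation (SD), a log2 fold change of -0.59 ± 0.16 (adjusted p = 0.0329). Dot1l had 22.9 and 20.9 CPM in SIT against 30.9, 28.8 and 26.8 CPM on the left and 28.0, 31.6 and 29.7 CPM on the right, with a log2 fold change of -0.41 ± 0.10 (adjusted p = 0.0155). In each of these genes both SIT libraries lay below all 6 others. The log2 fold change was -0.45 ± 0.10 for Kdm2b, -0.46 ± 0.16 for Setdb2 and -0.47 ± 0.17 for Kmt2c, and the latter pair did not pass an adjusted p of 0.05. Kmt2c and Setdb2 were not called without NT6.305, nor Dot1l without NT6.306 or without TG9.1.1. Suv39h1 was 0.39 ± 0.14 higher in SIT (adjusted p = 0.0972, edgeR) and lay just under the threshold on size, and Kdm7a had 0.02 ± 0.10.

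With all 4 sedentary SIT libraries 5 members were called, and Setdb2 (-0.52) was the only one of the 7 among them. Kmt2a (0.69), Setd4 (0.43) and Kdm7a (0.39) were then higher in SIT and Ehmt2 (-0.41) was lower, beside 15.9% of genes called. Kmt2d was at 0.45, Kmt2c at 0.14 and Dot1l at 0.10. Kdm4b (-0.37), Kdm5c (-0.32) and Kdm2b (-0.27) stayed below 0 with unadjusted p-values under 0.05, but under the threshold on size. All 6 interneuron markers were called higher in SIT with the 2 libraries and 4 of 6 astrocyte markers lower, with Cnp of the oligodendrocyte list and Cx3cr1 higher and Camk2a and Tek lower, and their part in the values of the members was not tested. SIT used both hippocampi and other mice than the separate isolation, and the procedure cannot be told apart from these.

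**Figure D5:**
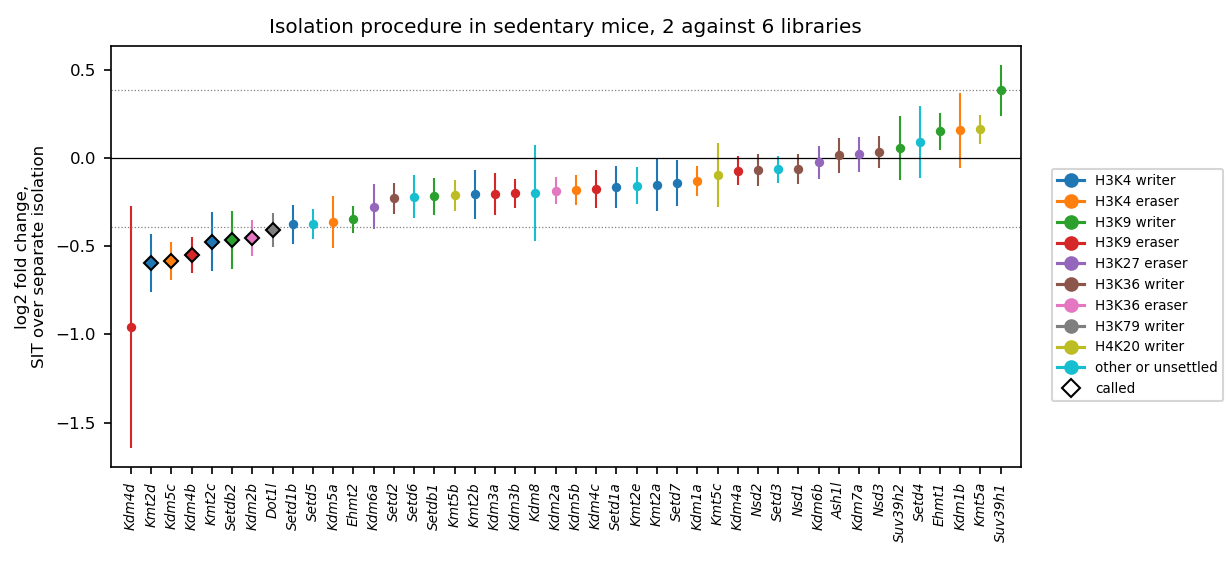
Log2 fold change of SIT over separate isolation in sedentary mice (2 against 6 libraries) for each of the 44 genes, ordered by value, with its standard error as a bar and dotted lines at the threshold of 0.39. The 7 called genes, drawn as diamonds, are all below 0, and 35 of the 44 lie below 0.

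Genes that work with the members were followed by the same rule. Of 11 tested subunits of COMPASS and MLL complexes, such as the WD-repeat and menin proteins that hold the H3K4 writers, 0 were called in SIT, on the left or on the right, with medians of 0.06 and 0.05 in SIT and on the left, and 0 had an unadjusted p under 0.05 in these by edgeR. Of 12 partners of LSD1 and of the H3K9 writers, 1 was called, Rcor2, a CoREST-family corepressor. It was higher in ELE on the right, with 16.0 ± 2.98 against 12.2 ± 1.02 CPM (SD, n = 3 each) and a log2 fold change of 0.40 ± 0.16 that passed the call rule but not the adjustment. Of 16 further lysine methyltransferase and demethylase genes with other symbols, among them Ezh2, the H3K27 writer, 0 were called by edgeR in the 3 ELE comparisons, and 1 had an unadjusted p under 0.05, in SIT. With SIT against separate isolation, Setmar, Psip1 and Cbx1 were called higher and Paxip1, Ezh2, Riox2 and Jmjd1c lower among these lists.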

How the data were processed

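TRAP-seq libraries of 20 Emx1-NuTRAP mice were analysed. The authors aligned reads to GRCm38 with STAR 2.7.3a, removed duplicates with Picard 1.87, counted read pairs on exons by strand, and deposited the raw counts, which are whole numbers with no scaling. Columns were assigned to groups through the mouse numbers in the study's sample key, since the sample labels carry none. A wild-type table of 24 columns was not used. Symbols, coordinates and exonic lengths came from GENCODE M21 (GRCm38).

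Counts were scaled with TMM, filtered with filterByExpr and tested with the quasi-likelihood test of edgeR 4.0.16 (R 4.3.3) over all genes, with Benjamini-Hochberg adjustment. The call rule was an unadjusted p under 0.05 together with a log2 fold change beyond a threshold that rounds to 0.39, and the standard error was the fold change over the root of F. The SIT libraries compared were those whose mean normalized counts matched the study's list for 633 of 633 genes. Levels were set per kb of the union of exons. The fits were tested on simulated data. Alternatives were DESeq2 1.42.0, median-of-ratios factors, no filter, a fold threshold of 0.38, 1 model with all groups, all 8 SIT libraries, the NT6 mice alone, and leaving out each library. Values per library were between 18.9 and 423 chi-square units per gene apart within groups, above counting error. The highest were pairs of an NT7.2 and an NT6 library. Among the libraries compared the largest distance was 87.2, between TG7.3.2 and TG9.1.4. The members and lists were chosen with earlier results of these data known. Named members were those called in any comparison, the smallest p of each, Kmt2a and Kmt2d, the highest of each residue, and partner genes called in SIT, left or right. Kmt2a and Kmt2d were chosen by the study's interest in them. Others were named after their values were seen. The call of 1 gene of the marker lists is not reported here.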

Additional observations from a re-analysis of the deposited data

Results flagged for a closer look

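Among 18 members examined in 4 groups of 4 or 6 libraries, 3 of 72 sets held a library far from the others by Dixon's test at 95%, where chance gives about 1 in 20. Ash1l had 74.5 CPM in SIT ELE library TG7.4.2, against 105 CPM in the next. Dot1l had 63.0 CPM in SIT ELE library NT6.304, which the study left out, against 29.6 CPM in the next. Setd5 had 95.4 CPM in sedentary left library TG7.3.4, against 109 CPM in the nearest of the separately isolated sedentary libraries.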

How the results depend on the processing

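In SIT, DESeq2, other size factors, no filter, a threshold of 0.38 and 1 model with all groups each left 1 member called, and 3 were called with all 8 libraries, 5 within the mice numbered NT6, and 0 to 2 on leaving out a library, which for NT6.305 or NT6.306 leaves 1 sedentary library that is assumed to vary like the ELE libraries. The members' median log2 fold change in SIT was -0.028 with all 8 SIT libraries, against 0.12 with 5, and 0.04 to 0.21 on leaving out a library. On leaving out a library, 0 to 2 members were called on the left, 0 to 4 on the right and 0 to 2 in the interaction, where no filter gave 1. Of all genes, 1.82% to 6.1% were then called in SIT, 1.2% to 5.18% on the left, 1.71% to 3.53% on the right and 1.81% to 3.69% in the interaction. Over both hemispheres 0 were called in 17 of 17 alternatives. In the isolation comparison 7 to 10 were called on leaving out a library, beside 14.2% to 16.8% of all genes, and 8 at a threshold of 0.38. The 1 member called higher in SIT in some of these was Suv39h1. There Kmt2c (0.14), Kmt2d (0.45) and Dot1l (0.10) turned sign with all 4 sedentary SIT libraries. The median level was 5.21 CPM per kb with the longest transcript. The cause of these shifts was not tested.

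The columns carry no replicate number of the labels. A replicate block by the first part of the mouse number was chosen after seeing the data. In SIT the TG7.4 mice were all exercised, so the block left ELE library NT6.303 alone against NT6.305 and NT6.306. Kdm7a then had 0.80, a value that rests on 1 ELE library. On the left 0 members were called, beside 1.83% of all genes, and Kdm7a had 0.38, just under the threshold. The block changed no count on the right, over both hemispheres or in the interaction. The deviations of libraries sharing the first part of the number correlated between -0.08 and 0.22 over 6 pairs. Those of the other pairs ran from -0.22 to 0.27. With 3 libraries in a group this cannot exclude a pairing, and the paper divided males of the same litters between the groups. The comparisons given do not pair the mice. With 2 or 3 libraries in a group, the small differences seen in most members could not be told from the spread between mice.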
